A study of Mus musculus with 12 samples.

Results

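Striatal projection neuron genes were followed in the brains of 12 mice as 9 genes of known function, Adora2a, Ppp1r1b, Pde10a, Rgs9, Rasd2, Adcy5, Gpr6, Bcl11b and Foxp1, which were chosen by symbol among the 31208 genes of the deposited table. All 9 were detected in every mouse. Male C57BL/6 mice of 8 weeks formed 3 groups of 4 mice each. Sham mice had no occlusion of the artery, and whether they were injected is not given in the sources used here. Vehicle mice received 2 μL of sterile saline and lactate mice 2 μL of lactate at 100 mmol/L into a cerebral ventricle 24 h before a filament closed the left middle cerebral artery (MCAO), and the brains of both groups were taken at 6 h of ischemia. The form of lactate is D-lactate in the methods and not named in the labels, and the labels give the tissue as brain. The paper calls it ischemic brain tissue, and which regions went into the RNA is not given in the sources used here, although for its protein blots such tissue is said to include cortex, hippocampus and striatum. RNA was sequenced as long nanopore reads of full-length cDNA, and total counts per mouse ranged from 6815920 to 10677224.

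Striatal projection neurons are the GABAergic medium spiny neurons that make up most of the striatum, a deep nucleus supplied by branches of the middle cerebral artery. Neurons of the direct pathway carry the D1 dopamine receptor and raise cAMP in response to dopamine, whereas neurons of the indirect pathway carry the D2 receptor, which lowers cAMP, and an adenosine receptor, which raises it. Both kinds share the signalling proteins and transcription factors that act downstream of these receptors. Bcl11b and Foxp1 are also transcribed in neurons of the cerebral cortex, so these 2 genes are less specific to the striatum than the other 7.

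In GENCODE release 21 on GRCm38 the genes lie on 7 chromosomes. Adora2a is at chr10:75316877-75334784 and Gpr6 at chr10:41069977-41072285. Ppp1r1b is at chr11:98348404-98357796 and Rgs9 at chr11:109225355-109298129. Pde10a spans chr17:8525372-8986648, Rasd2 chr8:75213944-75224113, Adcy5 chr16:35154877-35305738, Bcl11b chr12:107910403-108003602 and Foxp1 chr6:98925338-99522721. Adora2a, Rgs9, Rasd2, Gpr6 and Bcl11b overlap no other annotated gene. Of the genes that overlap the other 4 members, the table lists 1 inside Pde10a, with 5 reads, and 1 inside Foxp1, with 19 reads, in all 12 mice together.

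Promoter sequences, the 250 bases before the start of transcription in RefSeq on GRCm38.p6, were found for 7 of the 9 genes (10 entries, 3 of Foxp1 and 2 of Pde10a). They are printed for Adcy5 and Rasd2, whose levels went up and down together among the mice (Pearson's r = 0.84 over 12 mice), and for Gpr6 and Foxp1, the pair whose levels were the least alike (r = 0.19). The motifs searched, on both strands, were the cAMP response element TGACGTCA, its core TGACG, which the full element contains, the forkhead motif GTAAACA and the GC box GGGCGG, and the capitals mark the matches.
Adcy5, chr16:35154614-35154863, plus strand: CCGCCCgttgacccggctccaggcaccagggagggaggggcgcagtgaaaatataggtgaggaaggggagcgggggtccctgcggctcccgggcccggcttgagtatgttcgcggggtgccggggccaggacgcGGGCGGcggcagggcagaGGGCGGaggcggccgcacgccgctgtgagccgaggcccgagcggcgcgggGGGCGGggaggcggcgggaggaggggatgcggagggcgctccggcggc
Rasd2, chr8:75213694-75213943, plus strand: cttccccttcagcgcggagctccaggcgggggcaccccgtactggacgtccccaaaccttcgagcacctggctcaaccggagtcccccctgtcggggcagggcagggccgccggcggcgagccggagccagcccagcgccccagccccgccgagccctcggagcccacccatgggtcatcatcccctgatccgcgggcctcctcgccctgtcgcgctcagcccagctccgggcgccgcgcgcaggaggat
Gpr6, chr10:41072291-41072540, minus strand: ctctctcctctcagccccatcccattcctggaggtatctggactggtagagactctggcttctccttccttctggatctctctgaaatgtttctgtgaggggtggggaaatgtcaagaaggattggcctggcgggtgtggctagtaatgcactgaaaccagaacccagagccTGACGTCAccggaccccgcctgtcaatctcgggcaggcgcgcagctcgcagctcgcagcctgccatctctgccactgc
Foxp1, chr6:99028299-99028548, minus strand: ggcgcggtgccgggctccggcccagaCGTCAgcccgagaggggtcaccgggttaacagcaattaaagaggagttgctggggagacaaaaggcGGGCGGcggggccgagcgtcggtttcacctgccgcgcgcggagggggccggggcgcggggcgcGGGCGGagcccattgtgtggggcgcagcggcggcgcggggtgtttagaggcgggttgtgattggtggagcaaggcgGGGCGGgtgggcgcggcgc
The printed promoters of Adcy5, Rasd2 and Foxp1 were GC-rich (78.0%, 75.2% and 74.0% GC against a median of 52.4% over 32851 mouse promoters). That of Gpr6 had 58.4% GC. The Adcy5 promoter held 4 GC boxes and the Rasd2 promoter 0. Among the 7 members with an entry, Gpr6 was the only one with the full cAMP response element, which 1.55% of all promoters held. The core was found in 2 of the 10 member entries and in 17.8% of all promoters, the GC box in 5 of 10 entries and in 32.7% of all, and the forkhead motif in 0 of 10 entries and in 3.17% of all. Of the 3 Foxp1 entries, the one printed held the most matches. The others held no core, 1 and 0 GC boxes, and 60.8% and 45.2% GC. These matches are letters in a window and were not tested as binding sites.

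Levels of the 9 genes are given as CPM, the count of a gene scaled to the total count of that mouse. Ppp1r1b was the most abundant of them in sham mice (287 ± 44.7 CPM, mean ± SD, n = 4), followed by Foxp1 (73.3 ± 16.7), Pde10a (44.3 ± 10.2), Rgs9 (35.2 ± 11.1), Adora2a (26.2 ± 12.6), Adcy5 (16.0 ± 0.813), Rasd2 (10.6 ± 3.55), Bcl11b (10.3 ± 2.32) and Gpr6 (2.38 ± 1.09). Divided by the length of the longest annotated coding transcript, Ppp1r1b was at 143 ± 22.4 CPM per kb and above every value of the other genes. On this scale Rgs9 (10.2 ± 3.20 CPM per kb), Foxp1 (10.2 ± 2.32) and Adora2a (10.1 ± 4.87) did not differ beyond their spread. They were followed by Pde10a (5.70 ± 1.31 CPM per kb), Rasd2 (3.77 ± 1.26), Adcy5 (2.28 ± 0.116), Gpr6 (1.33 ± 0.612) and Bcl11b (1.27 ± 0.286), and neighbours in this order overlapped except Ppp1r1b with Rgs9 and Adcy5 (lowest 2.15) with Gpr6 (highest 1.86).

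**Figure D1:**
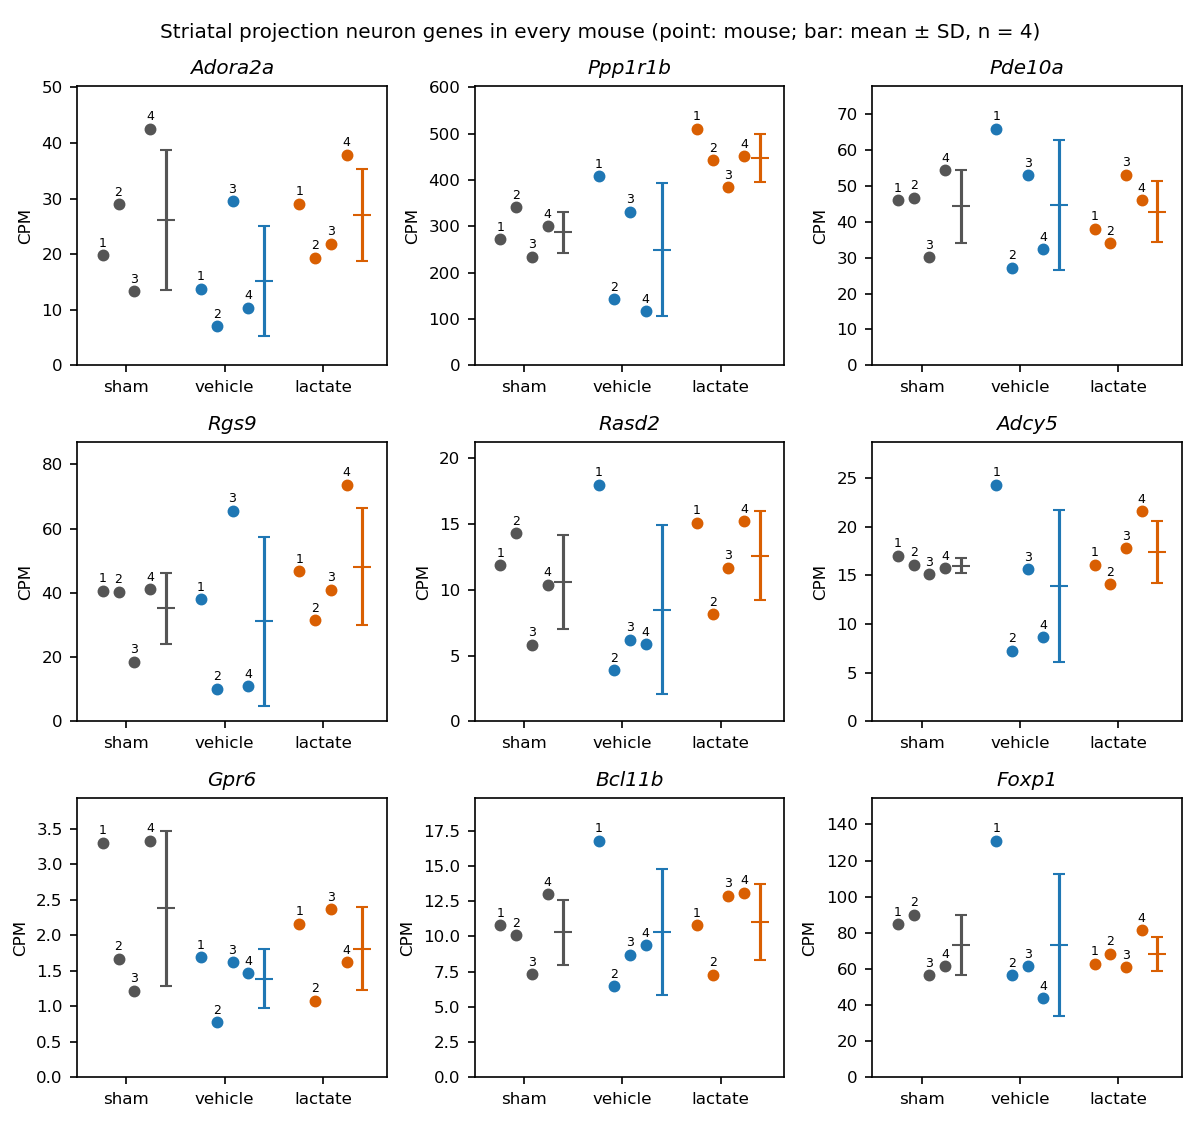
CPM (y axis, from 0) of each of the 9 genes in every sham, vehicle and lactate mouse (numbered points), with the mean and SD of each group of 4 beside them. In the Ppp1r1b panel the 4 lactate mice (384 to 511 CPM) sit above the 4 sham mice (235 to 341 CPM), whereas in the other 8 panels these groups overlap. Over all 17262 genes tested in this comparison the lactate mice sat above all sham mice for 10.4% and below them for 8.74%, and vehicle mice 2 and 4 are among the lowest in most panels.

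Ppp1r1b, which encodes DARPP-32, the protein that inhibits protein phosphatase 1 once protein kinase A has phosphorylated it, was the single member that changed in a comparison of groups. It was higher in lactate mice than in sham mice. The levels were 272, 341, 235 and 300 CPM in sham mice 1 to 4, 409, 143, 332 and 117 CPM in vehicle mice 1 to 4, and 511, 443, 384 and 452 CPM in lactate mice 1 to 4. All 4 lactate mice lay above all 4 sham mice, while the vehicle mice spread over a 3.5-fold range that reached below and above the sham mice. With lactate against sham, Ppp1r1b rose 1.59-fold (log2 fold change 0.67 ± 0.13 SE, 95% interval 0.39 to 0.95, edgeR quasi-likelihood adjusted p = 0.00564). Adjusted p-values of this difference ranged from 0.000175 to 0.191 over 18 alternatives, and it was lost in 1 of them, a fit of all 12 mice that includes the spread of the vehicle mice (log2 fold change 0.67, adjusted p = 0.191). With vehicle against sham the log2 fold change of Ppp1r1b was -0.16 ± 0.33 (95% interval -0.87 to 0.54, adjusted p = 0.873 with edgeR). With lactate against vehicle it was 0.82 ± 0.33 (95% interval 0.09 to 1.54, unadjusted p = 0.0305, adjusted p = 0.536 with edgeR), so this difference did not pass the adjusted test. In bulk RNA, a different number of cells of a type and a different amount of RNA per cell cannot be told apart.

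Ppp1r1b was also set against the other 8 genes of the same mouse. Because it was the member called with lactate against sham, a higher ratio in lactate mice partly follows from that call. The ratio is therefore no separate evidence. Its CPM divided by their summed CPM was 1.16, 1.37, 1.58 and 1.24 in sham mice 1 to 4, 1.32, 1.19, 1.37 and 0.951 in vehicle mice and 2.31, 2.41, 1.73 and 1.55 in lactate mice. In vehicle mice 2 and 4 both Ppp1r1b and the sum of the others (120 and 123 CPM) were low, and the ratio was within the sham range in mouse 2 and the lowest of the 12 mice in mouse 4. In lactate mice 1 to 3 the ratio was above that of every other mouse, while lactate mouse 4 lay just below sham mouse 3. The group means were 1.34 ± 0.183 in sham, 1.21 ± 0.187 in vehicle and 2.00 ± 0.424 in lactate mice (SD, n = 4 each), given as a description.

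**Figure D2:**
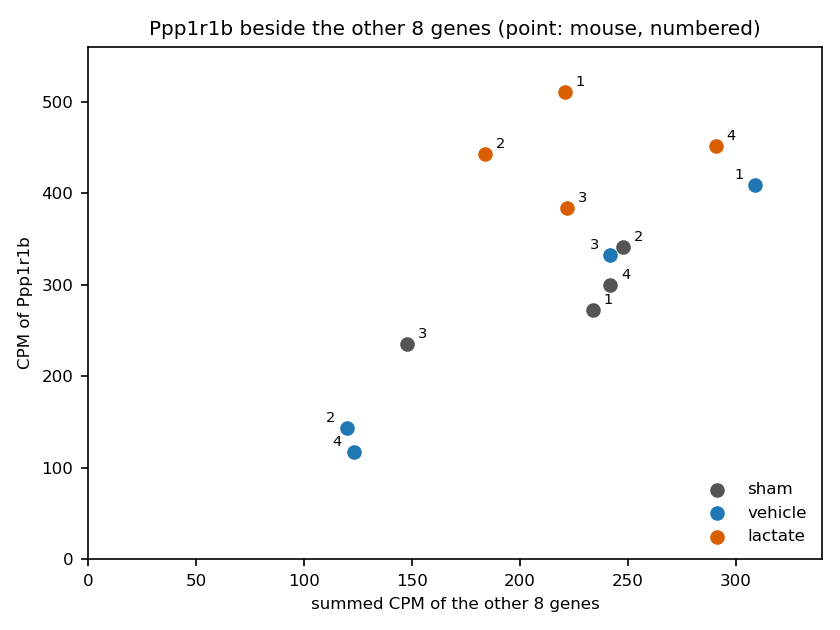
CPM of Ppp1r1b (y axis) against the summed CPM of the other 8 genes (x axis), both from 0, with 1 numbered point per mouse and colours for the groups. Vehicle mice 2 and 4 lie at the lower left, and lactate mice 1 to 3 stand above the other mice at similar sums (384 to 511 CPM of Ppp1r1b at sums of 184 to 222 CPM).

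Of the 9 genes, 0 passed an adjusted p of 0.05 with vehicle against sham, where 1.47% of 17019 genes tested did, and 0 had an unadjusted p under 0.05, beside 13.8% of all genes. With lactate against sham 1 of 9 passed, beside 12.3% of 17262 genes (2124 genes, and 1003 of 13337 when the test was run on Ensembl genes only, the class that holds all 9). With lactate against vehicle 0 of 9 passed, beside 0.00574% of 17419 genes (1 gene), and 2 of 9, Ppp1r1b and Adora2a, had an unadjusted p under 0.05, beside 8.84% of all genes. DESeq2, limma voom and the exact test of edgeR gave the same counts of adjusted calls among the 9 genes in each comparison. All 3 comparisons draw on the same 12 mice, so both differences from sham share the sham mice. The limits of the study are a fold change of at least 1.5 and a P below 0.05. Its methods describe Benjamini-Hochberg adjustment and do not say which P is meant, and unadjusted p was used for these limits here. The shares over all genes were then 9.52% for vehicle against sham, 17.5% for lactate against sham and 6.23% for lactate against vehicle. Of the 9 genes, 0, 1 and 2 met these limits. The last count rests on single mice, since it was 0 without vehicle mouse 2, vehicle mouse 4, lactate mouse 1 or lactate mouse 4 and 1 without lactate mouse 3, but 3 without vehicle mouse 1 or 3. The median log2 fold change of the 9 genes was -0.15 for vehicle against sham, 0.12 for lactate against sham and 0.34 for lactate against vehicle, beside 0.00, -0.03 and -0.03 over all genes tested.

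**Figure D3:**
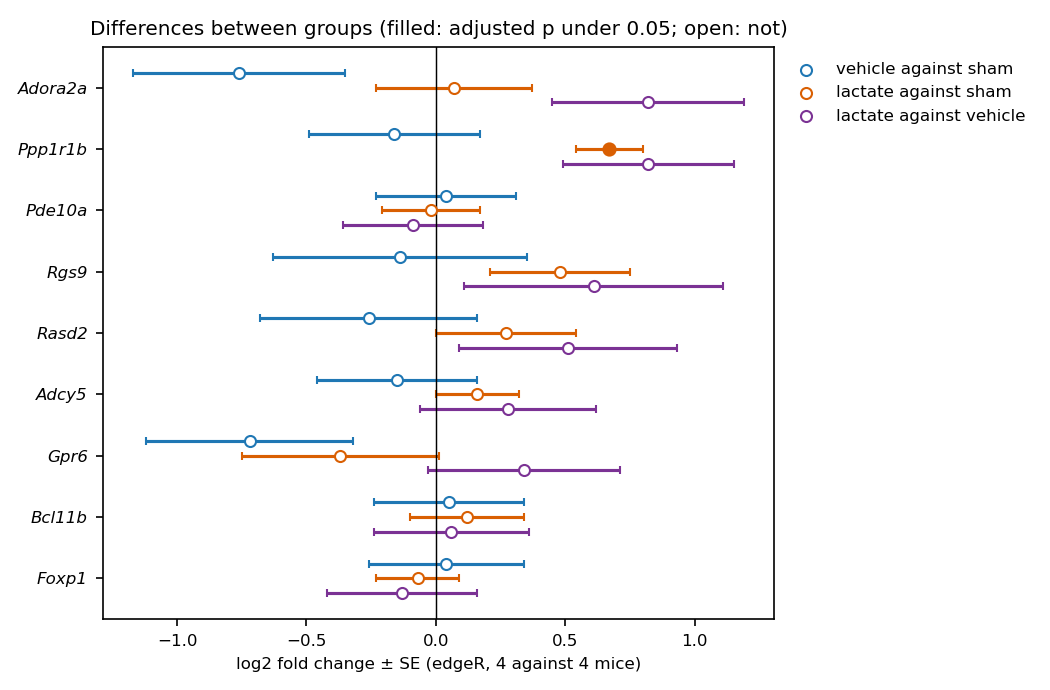
Log2 fold change with its SE (x axis) of each gene (y axis) in the 3 comparisons of 4 against 4 mice, with filled points for an adjusted p under 0.05. The single filled point is Ppp1r1b with lactate against sham (0.67), and the widest bars belong to Rgs9 in the comparisons that hold the vehicle mice (SE 0.49 and 0.50).

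Adora2a and Gpr6 are receptors of the indirect pathway. Adora2a, the adenosine receptor of this pathway, was at 19.8, 29.0, 13.4 and 42.6 CPM in sham mice 1 to 4, at 13.8, 7.12, 29.5 and 10.4 CPM in vehicle mice and at 29.1, 19.4, 21.9 and 37.9 CPM in lactate mice. Vehicle mice 2 and 4 lay below every other mouse, and vehicle mouse 3 lay within the range of the sham mice, so the groups overlapped. The log2 fold change was -0.76 ± 0.41 with vehicle against sham (95% interval -1.66 to 0.14, edgeR adjusted p = 0.455), 0.07 ± 0.30 with lactate against sham (adjusted p = 0.918) and 0.82 ± 0.37 with lactate against vehicle (95% interval 0.00 to 1.63, unadjusted p = 0.0496, adjusted p = 0.564). Gpr6, an orphan receptor that raises cAMP without a bound ligand, was the scarcest member, at 3.30, 1.67, 1.22 and 3.33 CPM in sham mice, 1.69, 0.777, 1.62 and 1.47 CPM in vehicle mice and 2.16, 1.08, 2.37 and 1.62 CPM in lactate mice. No vehicle or lactate mouse exceeded sham mice 1 and 4, but sham mice 2 and 3 lay among the ischemic mice. Its log2 fold change was -0.72 ± 0.40 with vehicle against sham (95% interval -1.59 to 0.14, adjusted p = 0.458 with edgeR) and -0.37 ± 0.38 with lactate against sham (adjusted p = 0.579).

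Adcy5, Pde10a, Rgs9 and Rasd2 act on the cAMP and G protein signals of these receptors. Adcy5, the main adenylyl cyclase of striatal neurons, was at 17.0, 16.1, 15.1 and 15.7 CPM in sham mice, 24.3, 7.25, 15.6 and 8.66 CPM in vehicle mice and 16.1, 14.1, 17.8 and 21.6 CPM in lactate mice. The sham mice were within 1.13-fold of each other, whereas the vehicle mice ranged over 3.34-fold, with 1 mouse above and 2 below all sham mice. The log2 fold change of Adcy5 was -0.15 ± 0.31 with vehicle against sham (95% interval -0.83 to 0.53) and 0.16 ± 0.16 with lactate against sham (95% interval -0.18 to 0.49), with edgeR adjusted p = 0.886 and 0.570. Pde10a, the phosphodiesterase that breaks down cAMP and cGMP in these neurons, was at 46.0, 46.7, 30.1 and 54.4 CPM in sham mice, 65.9, 27.2, 52.9 and 32.3 CPM in vehicle mice and 38.1, 34, 53.1 and 46.0 CPM in lactate mice. Its group means were close (44.3, 44.6 and 42.8 CPM), and the 95% intervals of its log2 fold change were -0.54 to 0.63 with vehicle against sham and -0.42 to 0.38 with lactate against sham.

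Rgs9 encodes a protein that speeds the switching off of G protein signals downstream of dopamine and opioid receptors. It was at 40.7, 40.4, 18.6 and 41.2 CPM in sham mice, 38.1, 10.2, 65.6 and 11 CPM in vehicle mice and 46.7, 31.5, 41.0 and 73.7 CPM in lactate mice. Vehicle mice 2 and 4 had the lowest levels of the 12 mice, and the range within the vehicle group, 6.41-fold, was the widest of the 9 genes in any group. The log2 fold change of Rgs9 was -0.14 ± 0.49 with vehicle against sham, 0.48 ± 0.27 with lactate against sham and 0.61 ± 0.50 with lactate against vehicle, with edgeR adjusted p = 0.936, 0.279 and 0.749. Rasd2 encodes Rhes, a small GTPase enriched in the striatum. It was at 11.9, 14.3, 5.84 and 10.4 CPM in sham mice, 18, 3.89, 6.22 and 5.87 CPM in vehicle mice and 15.1, 8.14, 11.7 and 15.2 CPM in lactate mice. The log2 fold change of Rasd2 was -0.26 ± 0.42 with vehicle against sham (95% interval -1.18 to 0.65), 0.27 ± 0.27 with lactate against sham (95% interval -0.31 to 0.84) and 0.51 ± 0.42 with lactate against vehicle (95% interval -0.40 to 1.43). The 3 groups overlapped for both genes.

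Bcl11b, also called Ctip2, and Foxp1 are transcription factors needed for the development of medium spiny neurons. Bcl11b was at 10.8, 10.1, 7.33 and 13.0 CPM in sham mice, 16.8, 6.48, 8.71 and 9.39 CPM in vehicle mice and 10.8, 7.30, 12.9 and 13.1 CPM in lactate mice. Foxp1 was at 84.9, 90.1, 56.6 and 61.5 CPM in sham mice, 131, 56.7, 61.6 and 43.9 CPM in vehicle mice and 62.9, 68.4, 60.9 and 81.5 CPM in lactate mice. Vehicle mouse 1 had the highest level of the 12 mice for both genes, and the groups overlapped. Their log2 fold changes lay between -0.13 and 0.12 in the 3 comparisons, and the widest of their 95% intervals, that of Bcl11b with lactate against vehicle, ran from -0.60 to 0.72.

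The larger differences were those between mice of 1 group. The median coefficient of variation of the 9 genes was 55.9% in vehicle mice, beside 25.5% over the 17214 genes with a mean of at least 1 CPM, and 9 of 9 members were above that median. In sham mice it was 23.0% beside 18.9% (7 of 9 above) and in lactate mice 24.4% beside 19.4% (6 of 9 above). Vehicle mouse 2 was below all sham mice for 8 of the 9 genes and had the lowest level of the 12 mice for 7, and vehicle mouse 4 was below all sham mice for 5 and the lowest of the 12 for 2. Vehicle mouse 1 was above all sham mice for 6 genes and the highest of its group for 7. Among the sham mice, mouse 3 was the lowest for 9 of 9 genes, and among the lactate mice mouse 2 was the lowest for 7 and mouse 4 the highest for 6.

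Members therefore moved up and down in the same mice. Over the 12 mice the 36 pairs of members had a median Pearson's r of 0.63 in log2(CPM + 1), from 0.19 to 0.87, and 0.70 after the mean of each group had been subtracted, with r above 0 for all 36 pairs in both. The median over all pairs of 10930 genes with a mean of at least 5 CPM was 0.01. By Spearman correlation the median over the members was 0.61. Much of this rested on vehicle mice 2 and 4, the 2 mice farthest from the median of the members' mean profile. Without them the median r over 10 mice was 0.38, from -0.27 to 0.83, with 32 of 36 pairs above 0. The closest pairs over 12 mice were Adora2a and Rgs9 (r = 0.87) and Ppp1r1b and Rgs9 (r = 0.86), and Gpr6 and Foxp1 were the least alike. Values of 1 mouse come from the same library, and these correlations are given as a description.

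**Figure D4:**
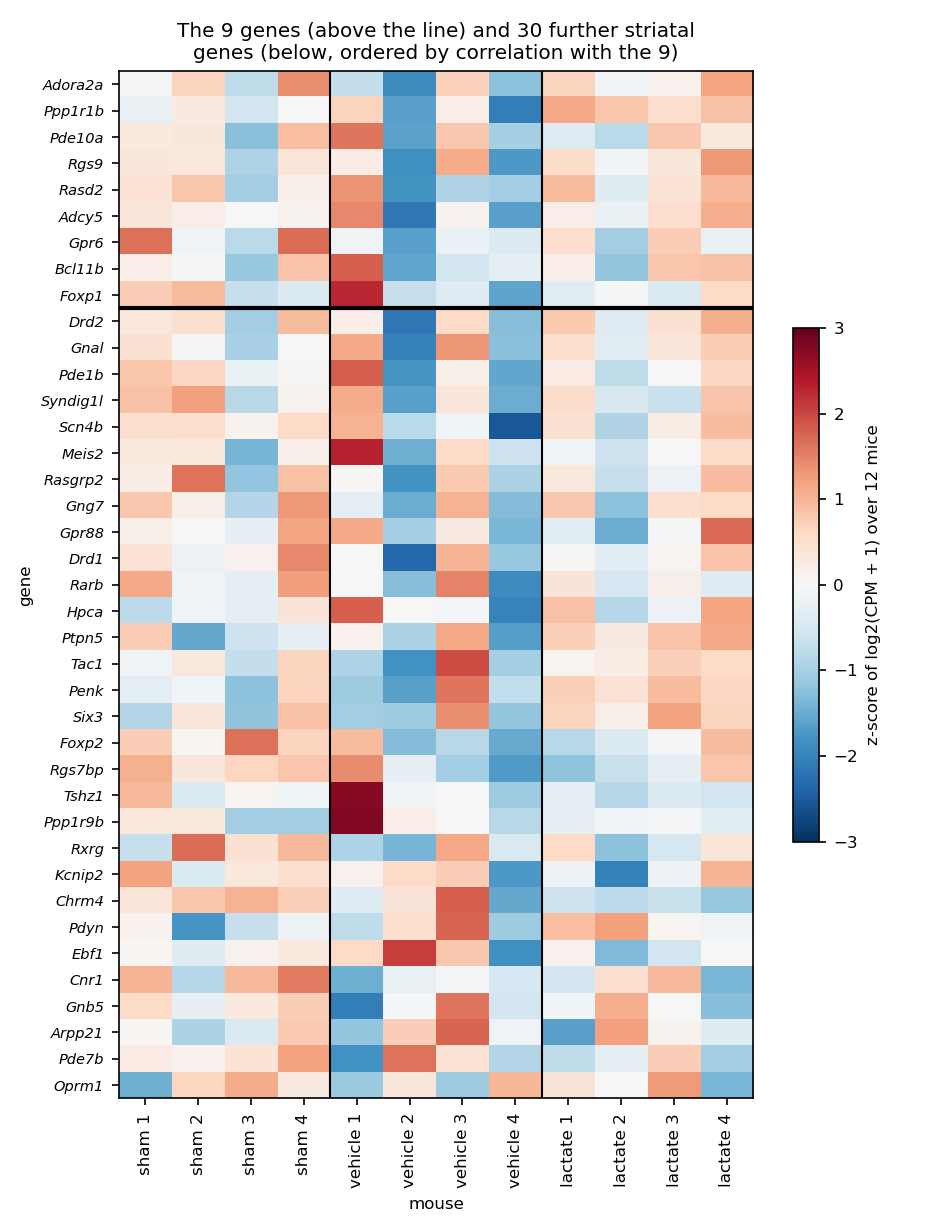
Z-scores of log2(CPM + 1) over the 12 mice (colour) for the 9 genes and for 30 further striatal genes (y axis) in each mouse (x axis), the latter ordered by their correlation with the mean profile of the 9. Vehicle mice 2 and 4 are blue for most genes of the upper rows, where Drd2 (r = 0.93) comes first of the further genes, while Oprm1 at the bottom (r = -0.49) follows another pattern.

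The same mice stood out for other genes of the striatum. Of 34 further striatal genes listed for dopamine and cAMP signalling, neuropeptides and transcription factors, 30 passed the filter on low counts. Their correlation with the mean profile of the 9 genes had a median of 0.54 over 12 mice, and was above 0 for 22 genes and above 0.5 for 18. Without vehicle mice 2 and 4 the median was 0.29, with 21 genes above 0 and 11 above 0.5. Drd2, the D2 dopamine receptor of the indirect pathway, was at 6.07, 6.8, 2.17 and 9.37 CPM in sham mice, 5.62, 0.648, 7.34 and 1.76 CPM in vehicle mice and 8.38, 3.71, 6.72 and 10.3 CPM in lactate mice, so that vehicle mice 2 and 4 and sham mouse 3 were the lowest, as for most members. Drd1, the D1 dopamine receptor of the direct pathway, was at 16.5, 12.5, 14.5 and 25.9 CPM in sham mice, 13.6, 4.40, 21.4 and 8.07 CPM in vehicle mice and 13.9, 11.6, 14.2 and 20.1 CPM in lactate mice (r = 0.77). Vehicle mice 2 and 4 were again the lowest. Of the 6 listed genes of the direct pathway with a mean of at least 1 CPM, Drd1 and Tac1 (r = 0.59) had r above 0, whereas Pdyn (-0.03), Ebf1 (-0.04), Chrm4 (-0.01) and Eya1 (-0.69) did not, and the median was -0.02. The 3 listed genes of the indirect pathway at this level, Drd2 (r = 0.93), Penk (0.55) and Six3 (0.53), all had r above 0. The mean profile itself holds Adora2a and Gpr6 of the indirect pathway and no gene of the direct pathway list. The pathway lists are therefore not compared with it on equal terms.

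In the tests, 0 of the 30 further striatal genes changed with vehicle against sham (median log2 fold change -0.14), beside 1.47% of all genes tested. With lactate against sham 0 rose and 1 fell (median -0.07), beside 12.3% called in either direction. With lactate against vehicle 0 changed (median 0.09), beside 0.00574%. In the first and the last of these comparisons 0 of the 30 genes met the limits of the study either, beside 9.52% and 6.23% of all genes. With lactate against sham 1 that was higher, Pdyn, and 1 that was lower met them, beside 17.5% of all genes. The gene that fell was Chrm4, the M4 muscarinic receptor, which lowers cAMP in neurons of the direct pathway. Chrm4 was at 4.48, 5.46, 5.98 and 5.18 CPM in sham mice, 3.18, 4.53, 8.09 and 1.76 CPM in vehicle mice and 2.84, 2.63, 2.77 and 2.20 CPM in lactate mice. The lactate mice lay below the sham mice without overlap, as for 8.74% of all genes tested (log2 fold change -0.98 ± 0.23, edgeR adjusted p = 0.0131), and with all 12 mice in 1 fit the adjusted p was 0.0951. Drd1 and Drd2 did not pass the test in any comparison, with log2 fold changes of -0.51 ± 0.39 and -0.62 ± 0.56 for vehicle against sham and of -0.18 ± 0.23 and 0.27 ± 0.38 for lactate against sham.

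The neuropeptides of these neurons did not pass the adjusted test either. Penk, the precursor of enkephalin in the indirect pathway, was at 135, 144, 95.1 and 188 CPM in sham mice, 101, 82.4, 265 and 114 CPM in vehicle mice and 192, 174, 209 and 186 CPM in lactate mice, with a log2 fold change of 0.46 ± 0.17 for lactate against sham (unadjusted p = 0.0151, edgeR adjusted p = 0.0880). Pdyn, the precursor of dynorphin in the direct pathway, was at 26.2, 13.2, 19.6 and 23.8 CPM in sham mice, 19.2, 30, 47.1 and 17.2 CPM in vehicle mice and 34.8, 39.0, 26.0 and 24.2 CPM in lactate mice (0.62 ± 0.21 for lactate against sham, unadjusted p = 0.0105, edgeR adjusted p = 0.0706). For both, sham and lactate mice overlapped. Tac1, the precursor of substance P, ranged from 64.1 to 111 CPM in sham mice, from 40.9 to 187 CPM in vehicle mice and from 88.0 to 113 CPM in lactate mice (0.20 ± 0.16 for lactate against sham, adjusted p = 0.455). Vehicle mouse 3 had the highest level of all 3 peptides.

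**Figure D5:**
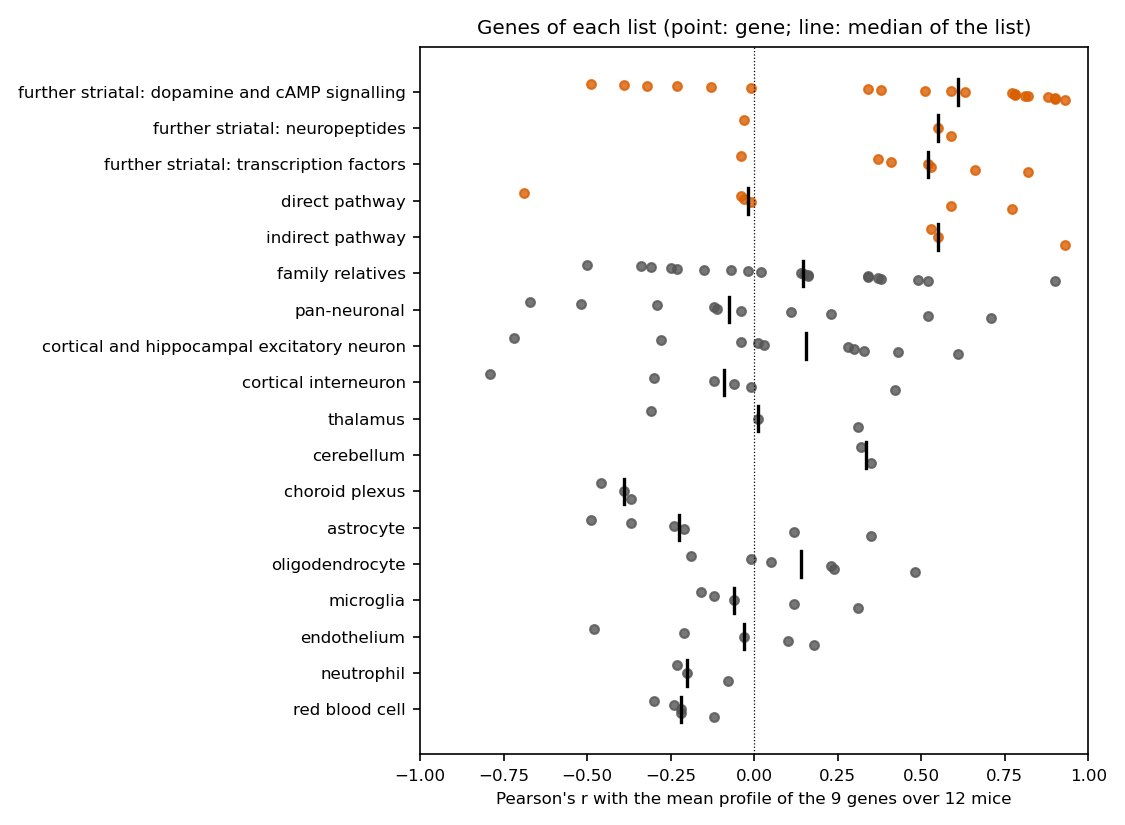
Pearson's r over 12 mice (x axis) between each listed gene (points) and the mean profile of the 9 genes, with the median of each list as a line, for genes with a mean of at least 1 CPM. Medians were 0.61, 0.55 and 0.52 for the 3 lists of further striatal genes, -0.02 for the direct and 0.55 for the indirect pathway (all orange, with most genes of the 2 pathway lists also in the first 3), and between -0.39 and 0.34 for the other lists (grey). The mean profile includes Adora2a and Gpr6 of the indirect pathway.

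The genes whose pattern over the 12 mice was most like the mean profile were looked for among 10922 genes with a mean of at least 5 CPM. The 8 closest had r from 0.85 to 0.93, where the median over all was 0.00. As the highest of 10922 correlations over 12 mice, these values are high by selection. Of the 8, 3 are further striatal genes. These are Drd2 (r = 0.93), Pde1b (r = 0.90), a phosphodiesterase activated by calcium, and Gnal (r = 0.90), the G protein subunit that couples D1 and adenosine receptors to adenylyl cyclase in the striatum. The others were Lrrc10b (r = 0.91), Zfp318 (r = 0.89), Rsrc2 (r = 0.88), Ncoa7 (r = 0.87) and Gm10031 (r = 0.85). Lrrc10b ranged from 6.60 to 61.5 CPM. By Spearman correlation Lrrc10b, Ncoa7 and Gm10031 remained among the closest 8, whereas Drd2, Pde1b and Gnal ranked 110, 48 and 69.

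Of 21 relatives of the members in the same gene families, 20 were tested. With vehicle against sham 1 rose, beside 1.47% of all genes called in either direction. With lactate against sham 2 rose and 1 fell, beside 12.3%, and with lactate against vehicle 0 changed, beside 0.00574%. The limits of the study were met by 3 relatives that were higher and 1 that was lower with vehicle against sham, beside 9.52% of all genes. With lactate against sham 1 and 1 met them, beside 17.5%, and with lactate against vehicle 0 and 1, beside 6.23%. Rasd1, a dexamethasone-induced GTPase and the closest relative of Rasd2, was at 2.51, 1.78, 2.72 and 4.07 CPM in sham mice, 10.6, 25.1, 18.5 and 16.9 CPM in vehicle mice and 13.0, 22, 12.7 and 11.1 CPM in lactate mice. It rose 6.54-fold with vehicle (log2 fold change 2.71 ± 0.31, edgeR adjusted p = 0.000482) and 5.43-fold with lactate (2.44 ± 0.29, adjusted p = 0.00018), both against the same sham mice, whereas Rasd2 overlapped between all groups. Pde2a, a phosphodiesterase stimulated by cGMP, was at 135, 100, 112 and 109 CPM in sham mice, 135, 102, 101 and 128 CPM in vehicle mice and 149, 156, 137 and 149 CPM in lactate mice. Its difference (log2 fold change 0.41 ± 0.10, edgeR adjusted p = 0.0204) was lost without sham mouse 3 (adjusted p = 0.0613) or 4 (0.0564) and in 1 fit of 12 mice (0.0625). Gpr12, a receptor of the same small group as Gpr6, was at 12, 9.81, 17.1 and 15.4 CPM in sham mice, 6.56, 6.09, 9.83 and 7.04 CPM in vehicle mice and 8.25, 4.43, 5.01 and 9.86 CPM in lactate mice. Its fall with lactate (-0.94 ± 0.26, edgeR adjusted p = 0.0334) was lost without sham mouse 3 (adjusted p = 0.104) or 4 (0.0885), without lactate mouse 2 (0.0866) or 3 (0.0959) and with Ensembl genes only (0.0514). With vehicle against sham its log2 fold change was -0.84 ± 0.23 (unadjusted p = 0.00337, edgeR adjusted p = 0.123), and the 2 differences share the sham mice.

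Markers of other cells moved in some of the same mice and comparisons. The summed level of 10 pan-neuronal markers was 7583 to 7742 CPM in sham, 7044 to 8411 CPM in vehicle and 7089 to 7920 CPM in lactate mice, while that of the 9 striatal genes was 383 to 589, 240 to 719 and 606 to 743 CPM. Without Ppp1r1b, the other 8 summed to 148 to 248, 120 to 309 and 184 to 291 CPM, so that sham and lactate mice overlapped. The 4 markers of striatal cholinergic interneurons, Chat among them, together reached 2.74 CPM at most. Vehicle mouse 2, in which most members were lowest, had 1817 CPM of the choroid plexus gene Ttr, which was at most 16.2 CPM in the other 11 mice, and the 6 choroid plexus markers summed to 1841 CPM there. Vehicle mouse 4, in which most members were also low, had the lowest summed level of the 6 oligodendrocyte markers, 5573 CPM, against 7064 to 11296 CPM in sham and 8859 to 9905 CPM in lactate mice. Vehicle mouse 1, in which most members were high, stood apart from the other mice on the second principal component of all genes (66.9, others from -21.8 to 10.2). This mouse also had the highest summed level of the pan-neuronal markers (8411 CPM). The same held for the markers of cortical and hippocampal excitatory neurons (1567 CPM). With lactate against sham, 3 of 3 tested neutrophil markers, 1 of 5 endothelial markers and Ttr rose, whereas 4 of 5 red blood cell markers, 2 of 6 oligodendrocyte markers, 1 of 10 markers of cortical and hippocampal excitatory neurons and 1 each of the 5 microglial and 5 endothelial markers fell, and 0 of 10 pan-neuronal and 0 of 6 astrocyte markers changed. With vehicle against sham, 2 of 2 tested neutrophil markers rose and 2 of 5 microglial markers fell. Over all genes tested, 12.3% were called with lactate against sham and 1.47% with vehicle against sham. The part of these cells and of the tissue taken in the levels of the striatal genes was not tested. Ppp1r1b was higher in lactate than in sham mice in each of the 8 fits that left out 1 mouse, with log2 fold changes from 0.58 to 0.78 and edgeR adjusted p from 0.00272 to 0.0214.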

How the data were processed

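Brain RNA of 12 mice was analysed, 4 in each of 3 groups taken from the sample labels. Per the methods, the authors kept nanopore cDNA reads (14 PCR cycles) with a mean quality of at least 7 and a length of at least 500 bp, removed ribosomal RNA, mapped full-length reads with minimap2 and polished isoforms with pinfish. The authors deposited the count of reads per gene in each mouse, without normalization. The authors also deposited CPM values, which equal count over library total, and edgeR P values, log2 fold changes and calls of their own comparisons, which were not used. The submitters' processing notes name GRCm38 and DESeq 1.10.1. The way reads were assigned to genes and whether strand was used are not given in the sources used here. The table has 31208 genes, 4 lines without a gene were left out, and 0 per-sample columns were left out.

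The main test was the quasi-likelihood test of edgeR 4.0.16 under R 4.3.3, run on the counts of 1 pair of groups at a time, with TMM factors and a minimum of 1 CPM in 4 or more of the 8 mice. P-values were adjusted over all genes tested by the Benjamini-Hochberg method. The 95% intervals use the SE and the total degrees of freedom of that fit (residual plus prior). The scripts were tested on simulated data. Alternatives were DESeq2 1.42.0, limma 3.58.1 (voom with quality weights), the exact test of edgeR, other size factors and filters, Ensembl genes only, 1 fit of 12 mice, a replicate block, another pseudocount, and leaving out each mouse. Added after seeing the data were TMM-scaled levels, leaving out vehicle mice 2 and 4 together, and Spearman correlation among the members. The ratio of Ppp1r1b to the other 8 genes was not planned beforehand either. Python 3.11.15 was used for levels and correlations. The total count of each mouse, 6815920 to 10677224, sets the depth, and 3 counts were taken as the floor of detection, for counting error only.

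The 9 genes and all gene lists were chosen with earlier results of these data known. Named beside the 9 genes are listed striatal genes and relatives with an adjusted p under 0.05 (at most 6 per list), Drd1, Drd2, Penk, Tac1 and Pdyn, and the 8 genes most like the members' mean profile. Other genes were named as cell type markers. Of 22036 Ensembl identifiers, 22022 were found in GENCODE release 21. Replicate numbers name different mice, and nothing in the labels pairs them across groups. No 2 libraries of the same group were alike within sampling noise.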

Additional observations from a re-analysis of the deposited data

Results flagged for a closer look

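Each of the 9 genes was examined in each group of 4 mice for a mouse that stood far from the other 3, with 27 groups in all, of which about 1 in 20 is expected to stand out by chance. Rgs9 in sham mice was set apart by mouse 3, at 18.6 CPM against 40.4 to 41.2 CPM in the other 3, and the gap took 0.963 of the range of the group. Rasd2 in vehicle mice was set apart by mouse 1, at 18 CPM against 3.89 to 6.22 CPM, and the gap took 0.834 of the range. Sham mouse 3 was also the lowest of its group for the other 8 genes, and vehicle mouse 1 the highest of its group for 7 of the 9. Which regions of the brain were taken from these mice is not given in the sources used here, and their part in these values was not tested.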

How the results depend on the processing

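Of the 9 genes, 0 with vehicle against sham and 0 with lactate against vehicle passed the adjusted test under every alternative test, filter, scaling and left-out mouse, and 1 did with lactate against sham, except in 1 fit of 12 mice, where 0 did. Under the limits of the study lactate against vehicle gave 2 of 9. Those limits gave 2 of 9 genes for vehicle against sham without sham mouse 3 and 1 without vehicle mouse 1 or 3, 0 for lactate against sham without sham mouse 3 and 2 without lactate mouse 2 or with limma voom, and, for lactate against vehicle, 5 with limma voom, 3 with the replicate block and 1 with a minimum of 5 CPM or in 1 fit of 12 mice. Small differences that failed the test changed sign, and the cause was not tested. With voom, vehicle against sham was -0.08 for Pde10a, -0.17 for Bcl11b and -0.17 for Foxp1 (log2), lactate against sham 0.12 for Pde10a and 0.02 for Foxp1, and lactate against vehicle 0.18 for Pde10a and 0.18 for Foxp1. Pde10a with lactate against sham was 0.00 with a minimum of 5 CPM and 0.02 with Ensembl genes only. With the replicate number as a block, vehicle against sham was -0.01 for Pde10a, -0.01 for Bcl11b and -0.06 for Foxp1, lactate against vehicle 0.00 for Foxp1, and no adjusted call among the 9 genes changed. The block is no pairing of mice, since same-numbered mice had correlations of -0.148 to 0.158 in their deviations from the group means.

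With each mouse left out in turn, vehicle against sham ran from -0.51 to 0.08 for Ppp1r1b, -0.21 to 0.23 for Pde10a, -0.77 to 0.16 for Rgs9, -0.57 to 0.07 for Adcy5, -0.30 to 0.22 for Bcl11b and -0.40 to 0.22 for Foxp1. Lactate against sham ran from -0.15 to 0.41 for Adora2a, -0.17 to 0.09 for Pde10a, -0.01 to 0.29 for Bcl11b and -0.18 to 0.06 for Foxp1, and lactate against vehicle from -0.26 to 0.18 for Pde10a, -0.11 to 0.42 for Bcl11b and -0.31 to 0.33 for Foxp1. The remaining 14 of the 27 differences kept their sign under each alternative run, but some moved widely, such as Rasd2, from -0.96 without vehicle mouse 1 to -0.02 without vehicle mouse 2 with vehicle against sham and from 0.27 without vehicle mouse 2 to 1.23 without vehicle mouse 1 with lactate against vehicle. The median r among the members fell to 0.38 without vehicle mice 2 and 4, and by Spearman correlation 3 of the 8 most similar genes were shared (Lrrc10b, Ncoa7 and Gm10031). Over all genes, adjusted calls ranged from 114 (without sham mouse 3) to 503 (exact test) for vehicle against sham. With lactate against sham they ranged from 1003 of 13337 (Ensembl genes only) to 2614 of 17262 (exact test), with 1371, 1295 and 1345 without sham mouse 1, sham mouse 3 and lactate mouse 2. With lactate against vehicle the quasi-likelihood test of edgeR called 1 gene, its exact test 48 and DESeq2 62. With 4 mice per group and the spread of the vehicle mice, differences from that group had SE of 0.27 or more for all 9 genes. Gpr6 is left out by a minimum of 5 CPM.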
